A study of Homo sapiens with 6 samples.

Results

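The genes of MHC class I antigen presentation and peptide loading were examined in LX-2 cells, an established human hepatic stellate cell line. They were 9 genes named by symbol: the heavy chains HLA-B, HLA-C, HLA-E and HLA-F, the light chain B2M, the peptide transporter subunits TAP1 and TAP2, the peptide editor TAPBP (tapasin) and the transactivator NLRC5. Each symbol had 1 row among the 60748 rows of the table, and all 9 passed the expression filter, which kept 18275 genes. RNA was sequenced in 3 libraries of LX-2Vector cells and 3 libraries of LX-2FAP cells, which stably overexpress fibroblast activation protein α (FAPα), and the labels state that all were cultured for 24 h. Both groups carried a lentiviral vector with a ubiquitin promoter, EGFP and puromycin resistance, and LX-2FAP cells carried the FAP insert in addition. The study's methods describe puromycin selection of stable cell clones, so a difference between the groups cannot be told apart from a difference between the selected cells. Nothing states that the replicates were separate cultures, and p-values then measure only the spread between these libraries, which may be technical.

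A class I molecule consists of a polymorphic heavy chain, the light chain β2-microglobulin and a short peptide, and it presents intracellular peptides to CD8+ T cells. Peptides are made mainly by the proteasome and are carried into the endoplasmic reticulum by the TAP1-TAP2 transporter. Tapasin, calreticulin and the disulfide isomerase ERp57 (PDIA3) there hold the heavy chain and the light chain ready for loading. NLRC5 is recruited to the promoters of class I genes by the RFX and NF-Y complexes. Nearly all nucleated cells express class I, and interferon-γ and NF-kB signaling raise it.

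The proximal promoters are given because class I and loading genes are commonly described as sharing regulatory elements there. RefSeq (GRCh38.p14) promoter entries were matched for 7 of the 9 genes, and HLA-E and NLRC5 were not among them. The 250 bases before the annotated start are printed 5′ to 3′ for HLA-B and TAPBP, which are called below, and for HLA-C, TAP1 and B2M, which are not. These are reference sequences, and the alleles of LX-2 may differ from them. Capitals mark matches on either strand to NF-kB sites, the interferon-stimulated response element (ISRE, TTTCNNTTTC), its IRF core (TTTCNNTT), site α (TGACG) and the Y box (CCAAT). Every ISRE match contains an IRF core match, and adjoining capitals can hold overlapping matches.
HLA-B (chr6:31357180-31357429, minus strand): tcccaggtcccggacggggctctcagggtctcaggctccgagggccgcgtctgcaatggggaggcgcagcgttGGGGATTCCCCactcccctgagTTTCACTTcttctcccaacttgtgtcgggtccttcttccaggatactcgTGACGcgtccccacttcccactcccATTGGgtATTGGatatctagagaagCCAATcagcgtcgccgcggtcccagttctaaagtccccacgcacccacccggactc
HLA-C (chr6:31272093-31272342, minus strand): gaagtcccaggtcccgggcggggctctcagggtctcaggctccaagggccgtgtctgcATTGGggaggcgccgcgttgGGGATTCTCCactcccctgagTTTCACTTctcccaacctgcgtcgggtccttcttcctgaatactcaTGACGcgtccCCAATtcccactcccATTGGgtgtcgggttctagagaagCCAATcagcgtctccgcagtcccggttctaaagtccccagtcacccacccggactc
TAPBP (chr6:33314079-33314328, minus strand): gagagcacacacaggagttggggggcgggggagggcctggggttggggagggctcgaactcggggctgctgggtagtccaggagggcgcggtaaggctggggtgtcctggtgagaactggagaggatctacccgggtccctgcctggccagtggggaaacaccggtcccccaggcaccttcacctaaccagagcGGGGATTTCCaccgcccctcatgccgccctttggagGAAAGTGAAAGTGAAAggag
TAP1 (chr6:32853705-32853954, minus strand): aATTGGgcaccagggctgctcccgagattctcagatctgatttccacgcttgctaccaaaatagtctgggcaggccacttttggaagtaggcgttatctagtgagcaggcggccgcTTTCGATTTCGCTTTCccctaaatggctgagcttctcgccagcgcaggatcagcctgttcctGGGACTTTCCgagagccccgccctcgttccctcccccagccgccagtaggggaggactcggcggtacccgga
B2M (chr15:44711267-44711516, plus strand): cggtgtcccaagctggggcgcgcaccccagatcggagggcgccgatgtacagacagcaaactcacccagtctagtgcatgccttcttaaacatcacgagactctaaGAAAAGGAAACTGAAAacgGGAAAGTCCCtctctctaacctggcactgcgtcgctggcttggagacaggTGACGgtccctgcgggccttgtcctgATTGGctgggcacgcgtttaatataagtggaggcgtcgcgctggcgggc

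Toward the start, HLA-B and HLA-C held the same order of marked elements, an NF-kB match, an IRF core match, a site α match and Y boxes, and HLA-C had a further Y box before them. TAP1 and TAPBP each held 1 NF-kB match and a pair of overlapping ISRE matches, which lie close to the start in TAPBP, and TAP1 also held a distant Y box. B2M held all of these motif types. Over the 7 promoters, an NF-kB match was found in 5, an ISRE in 5, an IRF core in 7, site α in 4 and a Y box in 5. Of 35116 RefSeq promoter windows of the same length, 5.21% held the NF-kB motif, 3.02% an ISRE, 20.3% an IRF core, 21.2% site α and 32% a Y box. The interferon-γ-activated site (GAS, TTCNNNGAA), present in 6.57% of all windows, was matched in 0 of the 7. A match is a match of letters and no measurement of binding.

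**Figure D1:**
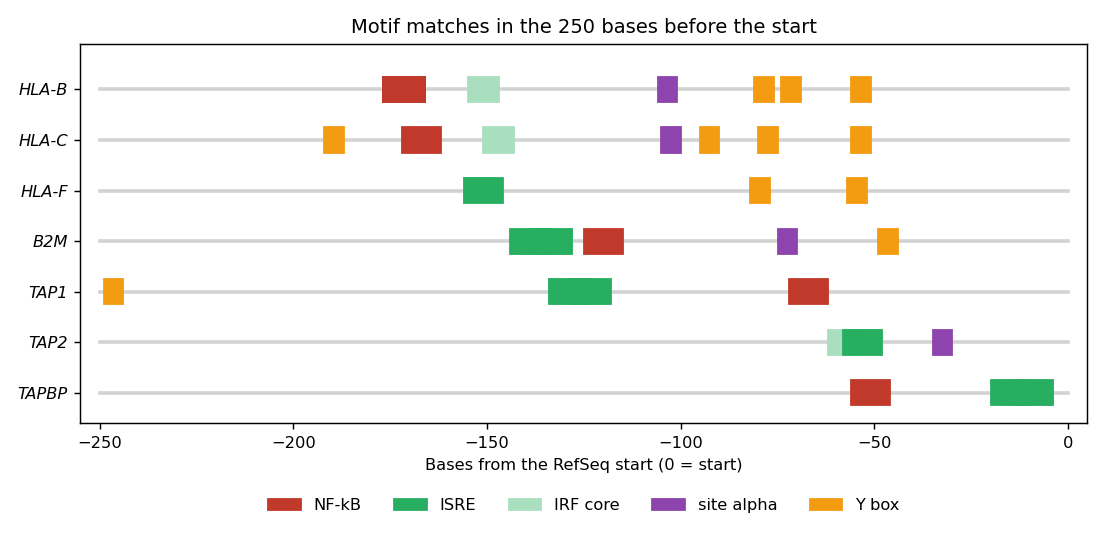
Positions of motif matches in the 250 bases before the RefSeq start of 7 class I and loading genes (horizontal axis, bases from the start; 1 row per gene; colored blocks are matches on either strand). From the NF-kB match on, HLA-B and HLA-C share the order of elements, and the matches of TAPBP all lie near the start.

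FAP, the overexpressed gene, was at 1.85, 2.39 and 2.59 normalized counts-per-million (CPM) in LX-2Vector replicates 1, 2 and 3 and at 620.1, 842.8 and 706.7 CPM in LX-2FAP replicates 1, 2 and 3, so the labels matched the libraries. Total counts ran from 17355700 to 26352060 per library. Of the 10 stellate markers, 8 were tested. Over all tested genes, edgeR called 5.29%. COL1A1, COL3A1 and PDGFRB, which encode collagen chains and the PDGF receptor β, were called lower in LX-2FAP, and the intermediate filament gene VIM was called higher, while LRAT was at 0 counts and DES at no more than 1 in every library. SPARC and ACTA2 were lower with an unadjusted edgeR p of 0.0115 and 0.0221 and were not called. COL1A2 (13 to 33 counts a library, log2 fold change -0.13) and TAGLN (log2 fold change 0.12) were not called either. Mean LX-2Vector levels were 0.109 FPKM for COL1A2, 2.10 FPKM for TAGLN and 1.29 FPKM for ACTA2, against 34.3 FPKM for COL1A1 and 300.8 FPKM for VIM. The stellate markers, mostly VIM, summed to 391.4 to 413.1 FPKM in LX-2Vector and 395.2 to 418.4 FPKM in LX-2FAP. None of 5 tested leukocyte markers was called by edgeR (LYZ alone had an unadjusted p under 0.05), and their summed level was 5.40 to 6.87 FPKM in LX-2Vector and 5.95 to 7.80 FPKM in LX-2FAP. Of 4 tested endothelial markers, VWF was called lower, and the summed level of the list was 1.57 to 1.82 FPKM against 1.21 to 1.61 FPKM. Hepatocyte and bile duct markers summed to 3.08 to 3.31 FPKM against 2.52 to 2.73 FPKM, with TTR at 0 in every library and neither tested marker called by edgeR (SERPINA1 had an unadjusted p of 0.00721). The log2 fold changes of the 5 called markers were -0.40 for COL1A1, -0.69 for COL3A1, -0.38 for PDGFRB, 0.13 for VIM and -1.06 for VWF. Without LX-2FAP replicate 3 none of them was called by edgeR, at -0.40, -0.68, -0.35, 0.14 and -1.17. COL1A1 was not called by the DESeq2 Wald test (adjusted p = 0.0502). With a smooth trend on transcript GC content removed from each library, edgeR called neither COL1A1 (adjusted p = 0.0522) nor PDGFRB (adjusted p = 0.0747). COL3A1, VIM and VWF stayed called in that fit. The part of other cell types in the differences was not tested.

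Levels of the 9 genes were first compared per kilobase, as the authors' FPKM. LX-2Vector cells expressed B2M at 198.5 ± 4.92 FPKM (SD, n = 3), a level above 99.6% of tested genes. The classical and nonclassical heavy chains followed, with HLA-E, the ligand of the NK receptor CD94/NKG2A, at 72.3 ± 2.25 FPKM, HLA-C at 66.5 ± 4.03 FPKM and HLA-B at 54.6 ± 3.76 FPKM. TAPBP was at 47.9 ± 3.50 FPKM, and its highest library (51.9) lay just above the lowest of HLA-B (51.8), so the ranges of these neighbors overlapped. Within each LX-2Vector library HLA-B was the higher, at 53.1, 51.8 and 58.9 FPKM against 46.2, 45.5 and 51.9 FPKM. The lowest of HLA-E (69.9) and the highest of HLA-C (69.2) were close but did not overlap. TAP1 was at 10.3 ± 0.0128 FPKM and TAP2 at 6.37 ± 0.219 FPKM, so the transcripts of the transporter subunits were below that of the editor. HLA-F, a nonclassical heavy chain, was at 1.83 ± 0.229 FPKM and NLRC5 at 1.79 ± 0.0765 FPKM, and these lowest levels overlapped. Means in LX-2FAP cells were in the same order except at its end, where NLRC5 (1.41 FPKM) and HLA-F (1.37 FPKM) changed places with overlapping libraries. The order depends on the gene lengths implied by the FPKM values, 3012 bases for HLA-B, 5056 for TAPBP, 4315 for HLA-F and 12386 for NLRC5. In normalized CPM, which is not divided by length, LX-2Vector means were 240.2 for TAPBP and 163.2 for HLA-B. They were 21.9 for NLRC5 and 7.83 for HLA-F.

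The comparison of LX-2FAP with LX-2Vector asked how overexpression of FAPα was accompanied by differences in class I and loading transcripts. HLA-B, TAPBP and NLRC5 were lower in LX-2FAP cells, by 14.8% to 19.5%, and no gene of the 9 was called higher. HLA-C, HLA-E, HLA-F, B2M, TAP1 and TAP2 were not called. The threshold was an edgeR adjusted p under 0.05, which 5.29% of all tested genes passed, 2.73% lower and 2.57% higher in LX-2FAP. The same 3 of the 9 passed at an adjusted p under 0.1, where 10.9% of all genes did, and 5 of the 9 had an unadjusted p under 0.05, as had 22.2% of all genes. The log2 fold change was negative for 8 of the 9 genes, against 53% of all tested genes, and its median was -0.13, against -0.01 for all. With a smooth trend on transcript GC content removed from each library, it was negative for 5 of the 9, with a median of -0.05 against 0.03 for all tested genes. In bulk RNA, less transcript per cell and fewer expressing cells cannot be told apart.

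**Figure D2:**
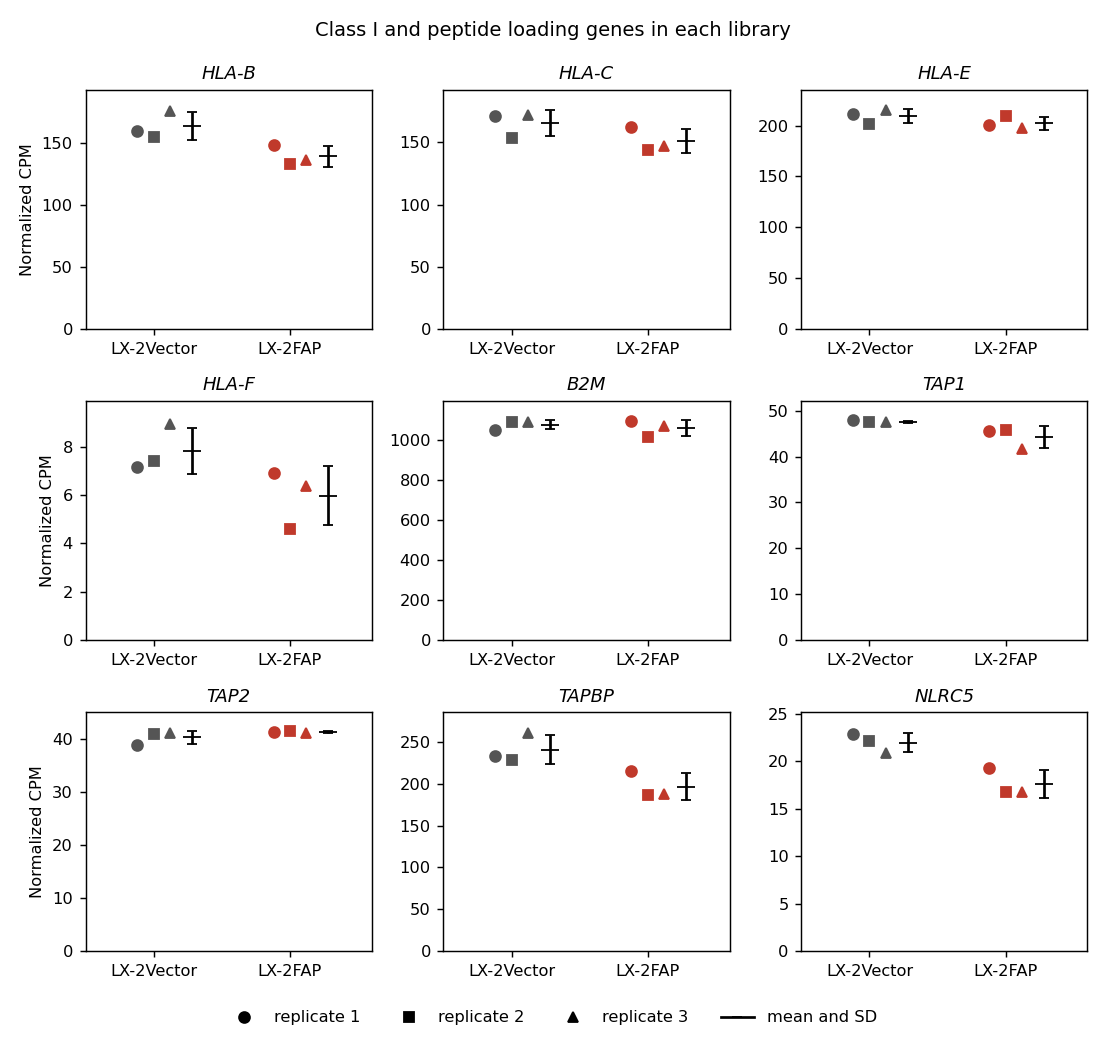
Normalized CPM (vertical axis, each from 0) of the 9 genes in each library of LX-2Vector (grey) and LX-2FAP (red), with the marker shape giving the replicate and the bar the mean ± SD (n = 3). The groups separate downward for HLA-B, HLA-F, TAP1, TAPBP and NLRC5, and LX-2FAP replicate 1 is the highest red point for HLA-B, HLA-F, TAPBP and NLRC5.

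The heavy chain HLA-B (ENSG00000234745, GRCh38 chromosome 6, 31269491 to 31357188, protein coding) presents peptides to CD8+ T cells and, for some alleles, engages killer cell receptors. It was at 159.6, 154.4 and 175.7 CPM in LX-2Vector replicates 1, 2 and 3 and at 148.4, 132.7 and 135.9 CPM in LX-2FAP replicates 1, 2 and 3. Every LX-2FAP library lay below every LX-2Vector library, and LX-2FAP replicate 1 was nearest to the controls. HLA-B fell by 0.23 on the log2 scale (SE 0.05, edgeR adjusted p = 0.0249). In GENCODE release 29, 17.8% of its exon bases overlap exons of genes on the other strand and 35 bases overlap HLA-C, so a part of its counts is uncertain where strand was not used.

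HLA-C (ENSG00000204525, chromosome 6, 31268749 to 31272130) is a classical heavy chain and the main ligand of inhibitory killer cell immunoglobulin-like receptors. It was at 171.4, 153.5 and 171.7 CPM in LX-2Vector and at 162.0, 143.5 and 147.1 CPM in LX-2FAP, again in the order of replicates. LX-2FAP replicate 1 lay within the control range and the other LX-2FAP libraries below it. Its log2 fold change of -0.13 (SE 0.05, adjusted p = 0.154 by edgeR) was not called.

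HLA-E (ENSG00000204592, chromosome 6, 30489467 to 30494205) was at 211.5, 201.9 and 215.1 CPM in LX-2Vector and at 200.3, 209.5 and 197.2 CPM in LX-2FAP. The groups overlapped, and the log2 fold change was -0.05 (SE 0.04, edgeR adjusted p = 0.517). HLA-F (ENSG00000204642, chromosome 6, 29722775 to 29738528), whose product can reach the surface without peptide, was at 7.15, 7.41 and 8.93 CPM in LX-2Vector and at 6.93, 4.61 and 6.40 CPM in LX-2FAP. The groups of HLA-F did not overlap, but its counts (83 to 190 per library) gave a wide error and its log2 fold change of -0.37 (SE 0.14, adjusted p = 0.126 by edgeR) was not called. It moved to -0.23 without LX-2FAP replicate 2 and to -0.26 with the GC trend removed. Exons of genes on the other strand cover 28.5% of the HLA-F exon bases.

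Because the heavy chain genes are alike in part, their counts were also added into 1 feature. The summed heavy chains were at 195.9, 185.3 and 204.5 FPKM in LX-2Vector replicates 1, 2 and 3 and at 182.3, 171.7 and 170.5 FPKM in LX-2FAP replicates 1, 2 and 3. As FPKM, these sums did not overlap between the groups, and the exact 2-sided permutation test gave p = 0.1, the smallest that 3 libraries against 3 allow. As normalized CPM they did overlap, with LX-2FAP replicate 1 (517.6) just above LX-2Vector replicate 2 (517.1), and the same exact permutation test gave p = 0.2. On counts, the log2 fold change of the sum was -0.13 (SE 0.04, edgeR adjusted p = 0.0821) and was not called. It was called without LX-2FAP replicate 1 (log2 fold change -0.16, adjusted p = 0.0364). HLA-B made up 27.1% to 28.8% of the summed FPKM in the LX-2Vector libraries and 25.3% to 26.8% in the LX-2FAP libraries, so its share of the 4 genes was lower in every LX-2FAP library. Words of 75 consecutive transcript bases shared with any other gene made up at most 1.67% of each heavy chain's words in the reference, which does not describe the alleles of this line.

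B2M (ENSG00000166710, chromosome 15, 44711487 to 44718877), the light chain shared by all class I molecules, was at 1049, 1087 and 1087 CPM in LX-2Vector and at 1094, 1015 and 1067 CPM in LX-2FAP. The highest and the lowest libraries of B2M were both LX-2FAP libraries. The log2 fold change of B2M was -0.02 (SE 0.04, edgeR adjusted p = 0.806). The ratio of B2M to the summed heavy chains, both as FPKM, was 0.984, 1.09 and 0.984 in LX-2Vector and 1.09, 1.07 and 1.13 in LX-2FAP, and these ranges overlapped. The size of this ratio depends on the gene lengths used for FPKM.

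Within the loading complex, TAPBP (ENSG00000231925, chromosome 6, 33299694 to 33314387) was called and the transporter subunits were not. Tapasin bridges the transporter and the heavy chain and favors the binding of stable peptides. TAPBP was at 233.0, 227.6 and 259.9 CPM in LX-2Vector replicates 1, 2 and 3 and at 214.8, 187.0 and 187.5 CPM in LX-2FAP replicates 1, 2 and 3. The groups did not overlap, with LX-2FAP replicate 1 between the controls and the other LX-2FAP libraries. Its log2 fold change of -0.29 (SE 0.06, adjusted p = 0.0140 by edgeR) had the smallest adjusted p of the 9 genes.

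TAP1 (ENSG00000168394, chromosome 6, 32845209 to 32853978) was at 47.9, 47.5 and 47.5 CPM in LX-2Vector and at 45.6, 45.9 and 41.6 CPM in LX-2FAP. The groups did not overlap, yet the log2 fold change of TAP1 was only -0.10 (SE 0.05, edgeR adjusted p = 0.279) and was not called. Its partner TAP2 (ENSG00000204267, chromosome 6, 32821833 to 32838780) was at 38.9, 40.9 and 41.1 CPM in LX-2Vector and at 41.3, 41.4 and 41.1 CPM in LX-2FAP, or 0.04 higher on the log2 scale (SE 0.05, adjusted p = 0.745 by edgeR). TAP2 was the gene of the 9 with a positive log2 fold change. It shares 32.3% of its exon bases with another gene on the same strand, so its counts are uncertain. Over the 9 genes, the LX-2FAP libraries all lay below the LX-2Vector libraries for 5 and narrowly above them for 1, TAP2, where the corresponding shares of all tested genes were 13.4% and 13%.

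NLRC5 (ENSG00000140853, chromosome 16, 56989485 to 57083531) encodes a NOD-like receptor family protein that activates class I transcription. It was at 22.9, 22.1 and 20.9 CPM in LX-2Vector replicates 1, 2 and 3 and at 19.3, 16.8 and 16.8 CPM in LX-2FAP replicates 1, 2 and 3. The groups did not overlap, and the log2 fold change of NLRC5 was -0.31 (SE 0.08, edgeR adjusted p = 0.0306). At a looser cutoff, a fold change over 1.2 with an unadjusted p under 0.05, HLA-F, TAPBP and NLRC5 passed and HLA-B did not. That cutoff was met by 7.89% of tested genes, 6.44% in the lower direction.

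**Figure D3:**
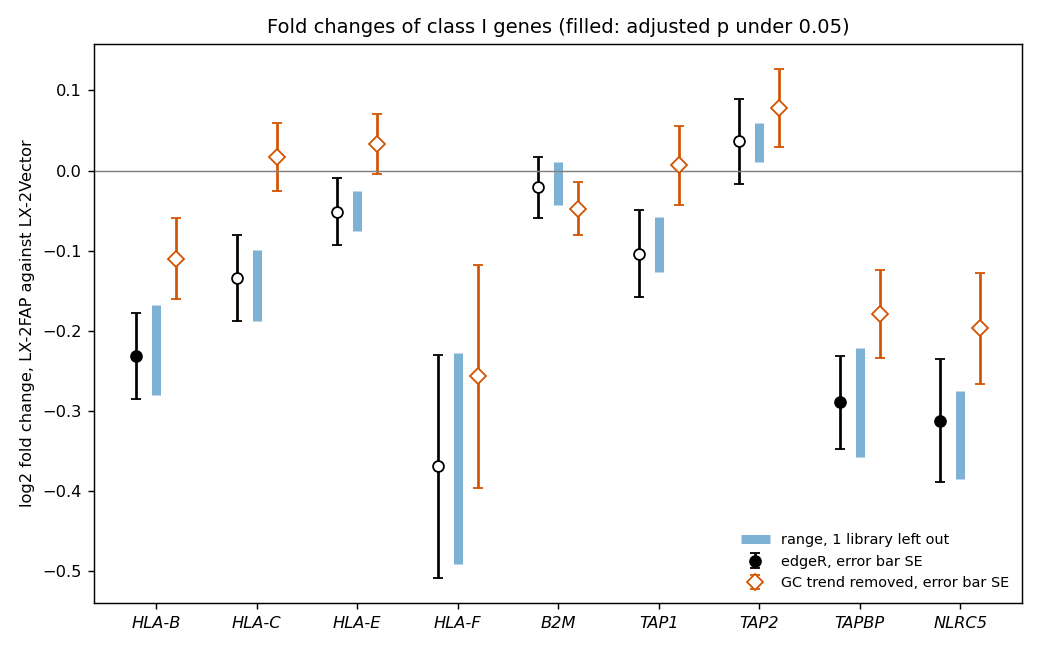
Log2 fold change of each gene, LX-2FAP against LX-2Vector (vertical axis; circles edgeR, diamonds the same test with the GC trend removed, error bars SE, filled where the adjusted p is under 0.05), with the range over the 6 fits that left out 1 library as a blue bar. HLA-B, TAPBP and NLRC5 are filled as circles, and no diamond is filled.

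Over all tested genes, fold changes varied with the GC content of the transcripts. Among all tested genes, the median log2 fold change fell from 0.05 for transcripts under 45% GC to -0.13 for those of 60% GC or more, and the share called lower rose from 0.775% to 8.28%. HLA-B (59.0% GC), TAPBP (57.6%) and NLRC5 (58.0%), with HLA-F and TAP1, lay in the band from 55% to 60%, where the median log2 fold change was -0.09, 72.5% of tested genes had a negative one and 5.51% of tested genes were called lower. With a smooth GC trend removed from each library, none of the 9 was called by edgeR, while 3 of them still had an unadjusted p under 0.05. Of all 18275 tested genes, that fit called 4.37%, and 3987 had an unadjusted p under 0.05. The log2 fold change was then -0.11 for HLA-B (adjusted p = 0.219), -0.18 for TAPBP (adjusted p = 0.0761) and -0.20 for NLRC5 (adjusted p = 0.112). It was 0.02 for HLA-C, 0.03 for HLA-E and 0.01 for TAP1, and for the summed heavy chains it was -0.02. The part of GC content in the differences was not tested.

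**Figure D4:**
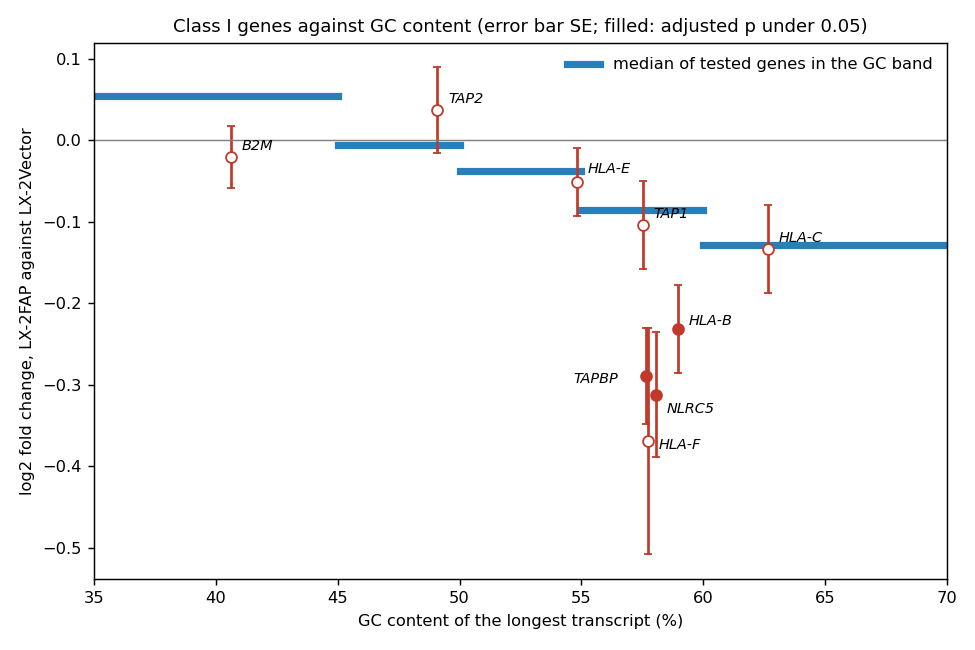
GC content of the longest transcript (horizontal axis, percent) against log2 fold change, LX-2FAP against LX-2Vector (vertical axis, error bars SE), for the 9 genes, with the median of all tested genes in each GC band as a blue line (the outer bands are open and are drawn to 35% and 70%). HLA-C, HLA-E, TAP1 and TAP2 lie within 1 SE of the line of their band, and B2M, HLA-B, TAPBP, NLRC5 and HLA-F lie below theirs by more than 1 SE. HLA-F is farthest below in log2 units and has the widest error bar.

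Calls also changed when single libraries were left out. None of the 9 genes was called without LX-2FAP replicate 2 or without LX-2FAP replicate 3 (edgeR, with 3 and 4 genes at an unadjusted p under 0.05), where the log2 fold changes were -0.20 and -0.21 for HLA-B, -0.25 and -0.26 for TAPBP and -0.28 and -0.28 for NLRC5. These fits called only 0.687% and 0.138% of all tested genes, so a count of 0 among 9 is near the share of all genes. Without LX-2FAP replicate 1, HLA-C (-0.19) and HLA-F (-0.49) were called besides the other three, in a fit that called 10.4% of all tested genes. TAPBP alone was called without LX-2Vector replicate 1, where HLA-B had -0.25 (adjusted p = 0.0504) and NLRC5 -0.28 (adjusted p = 0.0970). NLRC5 was also lost without LX-2Vector replicate 2 (-0.30, adjusted p = 0.0708) and HLA-B without LX-2Vector replicate 3 (-0.17, adjusted p = 0.102). The fits without LX-2Vector replicates 1, 2 and 3 called 2.09%, 3.54% and 2.12% of all tested genes, fewer than with all libraries. Limma-trend on FPKM called none of the 9, with 6 at an unadjusted p under 0.05, and it called 2 genes in the whole table. With log2(FPKM + 1), 3662 of 18275 tested genes had an unadjusted p under 0.05 by limma-trend. The DESeq2 Wald test called HLA-B, TAPBP and NLRC5, and it called 8.93% of the 11543 genes that it gave an adjusted p.

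Across the 6 libraries, the log2 CPM of HLA-B and TAPBP varied together (Pearson r = 0.99), as did HLA-B with HLA-C and HLA-F (both r = 0.90). B2M and HLA-E did not follow each other (r = -0.32), and TAP2 ran against NLRC5 (r = -0.66). All 6 points are shared by these pairs and include the group difference, so the values are descriptions. The genes most like the mean standardized log2 CPM of the 9, outside the set and at a mean count of 100 or more, were FER1L4, RNF157 (both r = 0.997), ASIC1 (r = 0.996), PPP2R2B and ZNF395 (both r = 0.995), over the same 6 libraries.

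HLA-B, HLA-C, HLA-E, HLA-F, TAP1, TAP2 and TAPBP lie in the MHC region of chromosome 6, from 29722775 to 33314387, with B2M on chromosome 15 and NLRC5 on chromosome 16. The region held 120 other tested genes, of which 5, or 4.17%, were called lower by edgeR, against 2.73% of all tested genes. The log2 fold change of these 120 was negative for 65.8%, against 53% of all tested genes, and its median was -0.07, against -0.01.

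Of 9 partners that fold and load class I molecules, 0 were called lower and 1 higher, where 2.73% and 2.57% of all tested genes were. The 1 called was CANX, which encodes the chaperone calnexin that binds newly made heavy chains. CANX was at 1344, 1354 and 1331 CPM in LX-2Vector and at 1479, 1583 and 1524 CPM in LX-2FAP, or 0.19 higher on the log2 scale (SE 0.04, edgeR adjusted p = 0.0120). All LX-2FAP libraries lay above the controls, and CANX stayed called with the GC trend removed but not without LX-2FAP replicate 2 (0.16, adjusted p = 0.0707) or replicate 3 (0.19, adjusted p = 0.0940), nor by limma-trend. SEC61A1, of the translocon, had the next smallest p, with a log2 fold change of 0.12 (adjusted p = 0.128). SEC61B (0.18, adjusted p = 0.141) and PDIA3 (0.10, adjusted p = 0.149) were not called either. Like CANX and SEC61A1, they were higher with an unadjusted edgeR p under 0.05, which 22.2% of all tested genes had in either direction. Of the 9 partners, 3 had a negative log2 fold change. With the GC trend removed, SEC61A1 and the chaperone gene CALR (calreticulin) were called besides CANX, and with the replicate block added SEC61A1 was and CALR was not. The median log2 fold change of the list was 0.07.

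Of the immunoproteasome subunits and PA28 activator, which shape the peptides for class I, none of 5 was called by edgeR, and 1, PSMB9, had an unadjusted p under 0.05. The shares of all tested genes were 5.29% and 22.2%, and 53% had a negative log2 fold change. All 5 had a negative log2 fold change, with a median of -0.06, and PSMB9 (-0.17, adjusted p = 0.190) and PSMB10 (-0.33, adjusted p = 0.243) had the smallest p. The 3 constitutive catalytic subunits PSMB5, PSMB6 and PSMB7 had log2 fold changes of 0.12 each, and none was called or had an unadjusted p under 0.05. The inducible subunits made up 6.46%, 7.09% and 7.75% of the FPKM summed over both sets in LX-2Vector and 6.62%, 5.47% and 6.13% in LX-2FAP. The log2 ratio of inducible to constitutive subunits was -3.71 ± 0.142 in LX-2Vector and -3.96 ± 0.147 in LX-2FAP (SD, n = 3 each), and the exact 2-sided permutation test of the difference of -0.24 gave p = 0.2. LX-2FAP replicate 1 lay within the control range.

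None of the 15 class I regulators was called by edgeR, with 4 at an unadjusted p under 0.05, and 10 had a negative log2 fold change, with a median of -0.04. Of all tested genes, edgeR called 5.29%, 22.2% had an unadjusted p under 0.05 and 53% had a negative log2 fold change. The absence of calls in the regulator, class I-like and class II lists is near that share of calls. NFYA, a subunit of the NF-Y complex that binds the Y box, had a log2 fold change of 0.13 (adjusted p = 0.106), and IRF1, the interferon-induced factor that binds the ISRE, had -0.21 (adjusted p = 0.110). Of 10 class I-like molecules, 8 were tested and none was called by edgeR, with 2 at an unadjusted p under 0.05, FCGRT, the neonatal Fc receptor that also pairs with B2M, at -0.42 (adjusted p = 0.0944) and MR1, which presents microbial metabolites, at -0.18 (adjusted p = 0.139). Of 10 class II genes, 6 were tested and none was called by edgeR, with 0 at an unadjusted p under 0.05. HLA-DMA, which edits class II peptides, had -0.35 (adjusted p = 0.286) and the invariant chain gene CD74 had -0.25 (adjusted p = 0.465). HLA-DPB1 was at 3.22 ± 0.0852 FPKM in LX-2Vector and CD74 at 0.591 ± 0.111 FPKM, far below the heavy chains HLA-B, HLA-C and HLA-E. Over all of these lists, the DESeq2 Wald test also called CANX alone, and limma-trend on FPKM called none.

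**Figure D5:**
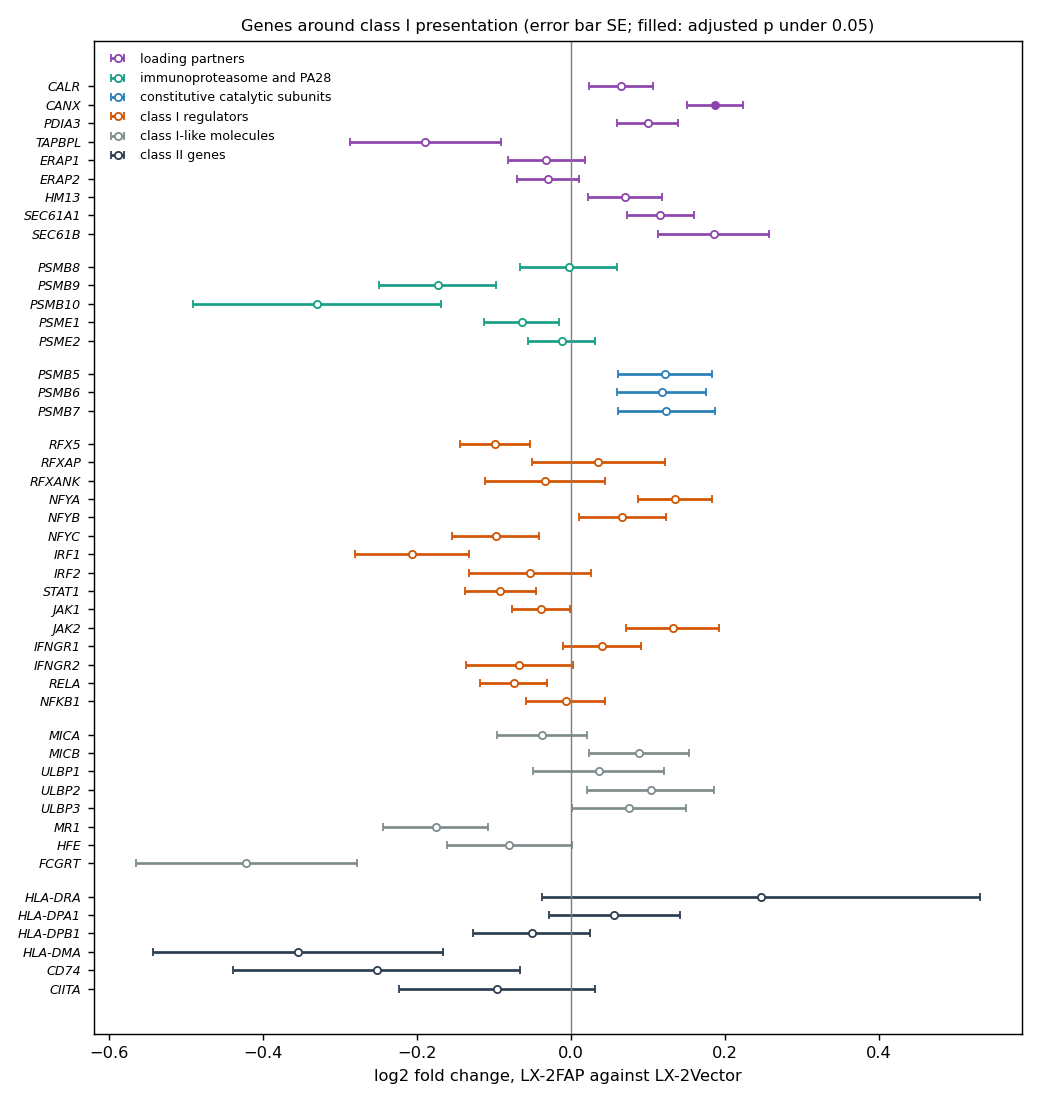
Log2 fold changes, LX-2FAP against LX-2Vector (horizontal axis, error bars SE), of the tested genes in 6 lists around class I presentation (colors; 1 gene per row, filled where the edgeR adjusted p is under 0.05). CANX is the 1 filled point, and the 3 constitutive proteasome subunits lie to the right of 0 while the 5 genes of the immunoproteasome list lie at or left of it.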

How the data were processed

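RNA sequencing of 6 LX-2 libraries was analysed from the table of genes deposited by the authors. The authors aligned reads with Hisat2 2.0.5, counted them per gene with FeatureCounts 1.5.0-p3 and deposited whole-number counts, not normalized, and FPKM values that the authors computed from count and gene length. The labels describe ribosomal RNA depletion and the study's methods also name poly(A) isolation. The submitters' notes list hg18, but 58337 of 60605 Ensembl identifiers matched GENCODE release 29 (GRCh38), from which coordinates and GC content were taken. The release of the annotation and whether strand was used are not given in the sources used here.

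Groups came from the sample titles. The counts were fitted in edgeR 4.0.16 with its quasi-likelihood test (TMM, filterByExpr with a minimum count of 10), with no covariate and Benjamini-Hochberg adjustment over 18275 genes. Genes were called at an adjusted p under 0.05, and edgeR, DESeq2 and limma p-values were 2-sided. Alternatives were DESeq2 1.42.0, other scalings and filters, limma-trend (limma 3.58.1) on log2(FPKM + 1) and log2(FPKM + 0.1), a replicate block, removal of a loess trend on GC content (span 0.5, GC known for 98.1% of tested genes) and each library left out. The GC content of the summed heavy chains was the mean of the 4 genes weighted by count. The 9 genes and the gene lists were chosen with earlier results of these data known. Named genes are the 9, FAP, in each list those called or, with fewer than 2, the 2 with the smallest p, and the 5 most correlated with the mean of the 9. Marker genes other than those called, and list members given beside them, were named after their values were seen. Replicate libraries differed beyond counting noise (the chi-square divided by its degrees of freedom was 2.02 to 4.99). The labels give no batch.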

Additional observations from a re-analysis of the deposited data

How the results depend on the processing

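The same 3 of the 9 genes, HLA-B, TAPBP and NLRC5, were called at the looser adjusted p under 0.1, which 10.9% of all tested genes passed. The replicate block (5.34% of all tested genes called), library size alone (5.73%) and no filter (3.9% of 41175) also called these 3. So did the DESeq2 size factors (5.76%), the DESeq2 Wald test (8.93% of 11543) and at least 10 counts in every library (6.32% of 16547). Of the 9, the number called was 0 under limma-trend with either pseudocount (6 at an unadjusted p under 0.05). It was 0 with the GC trend removed (3 at p under 0.05) and 0 with the GC trend removed and the replicate block (2 at p under 0.05). It ran from 0 to 5 when 1 library was left out. Of all 18275 tested genes, 3662 and 3638 had an unadjusted p under 0.05 in the limma-trend fits. With the GC trend removed, without and with the block, 3987 and 3588 did by edgeR. With the GC trend removed, without or with the block, the log2 fold change turned to 0.0166 and 0.0171 for HLA-C, 0.0330 and 0.0329 for HLA-E, and 0.00637 and 0.00544 for TAP1, and with 1 library left out it ran from -0.0432 to 0.0102 for B2M, positive without LX-2FAP replicate 2. The summed heavy chains passed the threshold with library size alone (-0.16) and no filter (-0.13), and ran from -0.16 to -0.0921 with 1 library left out. All genes called numbered 967, against 1606 with no filter, 2 under each limma-trend fit, 798 with the GC trend removed, 253 with the GC trend and the block, and 26 to 1949 with 1 library left out. Genes called in the lists around class I numbered 1, against 4 with no filter, 0 under limma-trend, 3 with the GC trend removed, 2 with the block added, and 0 to 4 with 1 library left out. FAP stayed called in every fit, with log2 fold changes of 8.17 to 8.45 with 1 library left out, and the immunoproteasome difference ran from -0.31 to -0.16. The replicate block alone gave 975 calls, with CANX and the same 3 genes. Replicate numbers are shared between the groups. The deviations of same-numbered libraries correlated at -0.04, 0.04 and -0.01, and not every library correlated best with its own number. Deviations within a group are tied to each other, so these values do not settle whether the numbers pair the libraries. With the block, the SE went from 0.133 to 0.069 for FAP and from 0.0540 to 0.0503 for HLA-B. Counting limits HLA-F most, at 83 to 190 counts a library. The causes of the lost calls were not tested.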
